A study of Mus musculus with 15 samples.

Results

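The lysozyme locus of the mouse holds 2 genes, Lyz1 and Lyz2, on chromosome 10. They are taken by name, the rule uses no measured value although results of these data were known when it was set, and they are 2 of the 22208 protein-coding gene starts that were counted. The study followed C10 cells, a derivative of the HAFTL line of mouse pre-B cells with C/EBPαER-GFP, a fusion of the transcription factor C/EBPα with the estrogen receptor domain, by chromatin immunoprecipitation and sequencing (ChIP-seq). The hormone β-estradiol activates the fusion protein, upon which the cells lose pre-B and take on macrophage features. The histone marks H3K4Me1, H3K27Ac and H3K27Me3 were followed over 5 times, 0, 3, 12, 24 and 48 h after induction (hpi), which gives 15 libraries, each the sole one of its mark and time. Per the labels, β-estradiol was given at 100 nM to induced cells, which grew with IL-3 and CSF-1 (10 nM of each), and control cells received the solvent, ethanol, at 0.1%. The study's methods give the hormone concentration in µM instead, so the dose is uncertain. The labels do not say whether the cells at 0 hpi had received the solvent. All libraries come from 1 line with an introduced factor. With no replicate library, a difference between times can be set only against counting error, and no test was run.

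Lysozyme is the enzyme that cuts the peptidoglycan of bacterial cell walls. In the mouse, Lyz2 encodes the form of macrophages and granulocytes and is a classical marker gene of the myeloid lineage, whereas Lyz1 encodes the form that Paneth cells of the intestine release. The genes are tandem duplicates. H3K4Me1 marks poised and active enhancers, H3K27Ac marks active enhancers and gene starts, and H3K27Me3 is laid down by Polycomb complexes at repressed regions. At active gene starts, H3K4Me1 is typically low next to the start itself, where trimethylation of the same residue prevails. Trimethylation was not analysed here.

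Both genes lie on the minus strand. In mm9, the build of the files, Lyz2 (ENSMUSG00000069516.6) spans chr10:116714390-116719377 and Lyz1 (ENSMUSG00000069515.5) spans chr10:116724852-116729924, so that Lyz1 lies upstream of Lyz2. Their coding sequences were identical at 425 of 447 aligned positions, 95.1%, and the 250 bases before their RefSeq starts at 205 of 260, 78.8%. These stretches are shown because the 2 starts carried each of the 3 marks at different levels. They come from the RefSeq promoter table (GRCm38.p6), and each was found once, without mismatch, in mm9. Lyz2 is at chr10:116719329-116719578 and Lyz1 at chr10:116729925-116730174, both written 5′ to 3′ on the minus strand and ending at the base before the RefSeq start. Capitals mark matches, on either strand, to the loose C/EBP consensus TTNNGNAA, the Ets core GGAAG, the Runx core TGTGGT, the PU.1 core GAGGAA, the AP-1 motif TGANTCA and the TATA box TATAAA.
Lyz2: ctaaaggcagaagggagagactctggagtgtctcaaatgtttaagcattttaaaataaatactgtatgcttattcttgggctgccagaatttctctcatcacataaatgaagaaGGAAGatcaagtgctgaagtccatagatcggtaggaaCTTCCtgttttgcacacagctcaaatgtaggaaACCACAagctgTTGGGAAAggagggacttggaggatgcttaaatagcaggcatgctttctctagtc
Lyz1: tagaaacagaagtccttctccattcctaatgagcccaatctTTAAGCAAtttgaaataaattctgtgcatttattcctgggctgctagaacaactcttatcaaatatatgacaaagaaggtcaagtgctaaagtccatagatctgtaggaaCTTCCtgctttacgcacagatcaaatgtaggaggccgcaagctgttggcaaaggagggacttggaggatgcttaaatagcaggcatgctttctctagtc

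Both stretches held the minus-strand Ets core that begins 99 bases before the start. Distances here are from the RefSeq start. At Lyz2 it lies 49 bases inside the GENCODE start on which the tag windows are centred, and at Lyz1 both starts agree. Lyz2 alone held a second Ets core at 136 bases, a Runx core at 66 bases and a C/EBP match at 55 bases, and the C/EBP match of Lyz1 lay at 209 bases. No marked match overlapped another. Such matches are common: among 32851 RefSeq promoters the same window held TTNNGNAA in 36.8%, GGAAG in 64.1% and TGTGGT in 14.0%. GAGGAA (23.3% of promoters), TGANTCA (6.75%) and TATAAA (12.4%) matched in neither gene. A match of letters is a description and does not show that a factor binds there.

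Near copies of a sequence matter for the counts, because only tags with a unique alignment and no mismatch were kept by the authors. Of the 36 bp positions of the mm9 sequence, 68.8% were unique in the Lyz2 gene and 74.0% in the Lyz1 gene. Nearly all of the others were repeated only inside the locus, 1459 of 1558 in Lyz2 and 1297 of 1319 in Lyz1. Levels inside both genes read low for this reason, at each time. In the 3 kb windows centred on the starts 77.9% (Lyz2) and 80.3% (Lyz1) of positions were unique. Tags at repeated positions made up 0.109% to 0.623% of the tags in the locus.

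Deposited libraries held 11.04 to 17.85 M tags for H3K4Me1, 15.93 to 18.56 M for H3K27Ac and 15.36 to 31.56 M for H3K27Me3. All values below come from libraries with 1 tag per position, thinned to 10.91, 15.22 and 15.34 M tags. The deposited files held at most 2 tags per position, except that at 0 and 48 hpi those of H3K4Me1 held more and those of H3K27Me3 at most 1. At that depth a 3 kb window holds 13.4, 18.7 and 18.8 tags in the genome mean of H3K4Me1, H3K27Ac and H3K27Me3. Intervals are exact 95% Poisson or binomial intervals and cover counting error only. H3K27Ac at the starts of 6 of 6 pre-B markers (Cd79a, Cd79b, Pax5, Ebf1, Vpreb1, Igll1) was at least 2-fold lower at 48 than at 0 hpi, against 15.7% of all measured gene starts. Of 6 macrophage markers (Csf1r, Cd14, Itgam, Emr1, Cd68, Fcgr3), 5 were at least 2-fold higher, against 10.6% of measured starts, and 1, Fcgr3, was lower. The starts of 4 T cell markers stayed between 0.268 and 1.28 times the genome mean at both times, and those of 4 erythroid markers between 0.321 and 5.51 times, highest at Klf1.

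The Lyz2 start carried active marks before induction and its H3K27Ac grew several-fold. The 3 kb at its start held 121, 255, 559, 825 and 725 H3K27Ac tags at 0, 3, 12, 24 and 48 hpi. That is 6.47 times the genome mean in pre-B cells (interval of the count 100.4 to 145) and 38.8 times at 48 hpi (673 to 780). The log2 change from 0 to 48 hpi was 2.57, with an interval of 2.30 to 2.87, and it was 1.45 in 1 kb and 3.62 in 6 kb around the start. In the order of the levels all neighbours differed beyond counting error, and the highest level was at 24 hpi. The difference between 24 and 48 hpi depended on the scaling. At equal depth the level fell by 0.19 on the log2 scale from 24 to 48 hpi, with background bins as the scale it fell by 0.82, and with bins enriched at all 5 times as the scale it rose by 0.20.

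H3K27Ac at the Lyz1 start was at background before induction and was clearly above it by 48 hpi. Its counts in the same order of times were 12, 31, 24, 44 and 96 tags, or 0.642 times the genome mean at first and 5.14 times at 48 hpi. The log2 change to 48 hpi was 2.90 (2.13 to 4.0). The step from 0 to 3 hpi (1.3, interval 0.37 to 2.47) exceeded counting error, but it rests on the 3 hpi library, since at 12 hpi the change from 0 hpi (0.94, interval -0.06 to 2.13) did not. The levels at 3 and 12 hpi did not differ beyond counting error, whereas the steps from 12 to 24 hpi (0.85, interval 0.13 to 1.66) and from 24 to 48 hpi (1.11, interval 0.60 to 1.67) did. With background bins as the scale the steps to 3, 24 and 48 hpi were 1.03, 1.53 and 0.48. At equal depth the shares of the rise made by 3 hpi were 22.6% at Lyz1 (10.8 to 38.1) and 22.2% at Lyz2 (17.2 to 27.7), which few tags at Lyz1 leave imprecise. By 12 hpi the shares were 14.3% and 72.5%, and Lyz1 had reached 38.1% by 24 hpi. With bins enriched at all times as the scale, the Lyz1 step from 24 to 48 hpi was 1.49, against 0.48 with background bins. Its share at 24 hpi thus depends on the scale.

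In fold terms the gain of H3K27Ac in 3 kb did not differ between the 2 starts beyond counting error. The Lyz1 minus Lyz2 difference in log2 change was 0.33, with an interval of -0.51 to 1.46 that leaves room for a difference in either direction. In 1 kb the difference was 1.78, outside that interval. The levels were far apart at all 5 times. From 0 to 48 hpi, Lyz2 held 10.1, 8.23, 23.3, 18.8 and 7.55 times the tags of Lyz1, and the lowest lower bound of these ratios was 5.57. Counted per uniquely alignable position, the levels at 48 hpi were 49.8 times the genome mean at Lyz2 and 6.39 times at Lyz1. The genome mean itself was not corrected for unique positions, so both values can read high.

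H3K4Me1 went in opposite directions in the 3 kb at the 2 starts. At Lyz2 the window held 96, 126, 112, 55 and 56 tags from 0 to 48 hpi. The first 3 libraries did not differ from their neighbours in time beyond counting error, nor did the last 2. The drop of this 3 kb sum fell between 12 and 24 hpi (log2 change -1.01, interval -1.52 to -0.55). Inside the gene the loss came earlier, between 3 and 12 hpi, as given below. At Lyz1 the counts were 12, 13, 43, 80 and 117, and each step after 3 hpi exceeded counting error. The log2 change to 48 hpi was -0.77 (-1.28 to -0.29) at Lyz2 and 3.18 (2.43 to 4.28) at Lyz1, a difference of 3.95 (3.04 to 5.17). Lyz2 held 8 times the H3K4Me1 tags of Lyz1 in pre-B cells and 0.479 times (0.342 to 0.664) at 48 hpi, so that the order of the genes was turned round in this 3 kb window.

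The H3K4Me1 value of Lyz2 rests on the window. It was -2.15 in 1 kb, -0.77 in 3 kb and 0.76 in 6 kb around the start, and -0.22 in 3 kb with background bins as the scale. Within the 1 kb that runs from the start into the Lyz2 gene, H3K4Me1 went from 49 and 59 tags at 0 and 3 hpi to 5, 1 and 6 tags at the later times (log2 change to 48 hpi -2.84, interval -4.54 to -1.81), and the genome mean of 1 kb is 4.47. In the same 1 kb, H3K27Ac counted 68, 136, 276, 362 and 236 tags in that order of times. In the 1 kb before the start, H3K4Me1 first rose from 37 to 82 tags at 12 hpi and then returned to 28 at 48 hpi. Of the 1 kb parts on either side of this start, the one inside the gene lost H3K4Me1 beyond counting error and the one before it did not. At Lyz1 both parts gained it, from 7 to 59 tags inside the gene and from 2 to 30 before it.

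**Figure D1:**
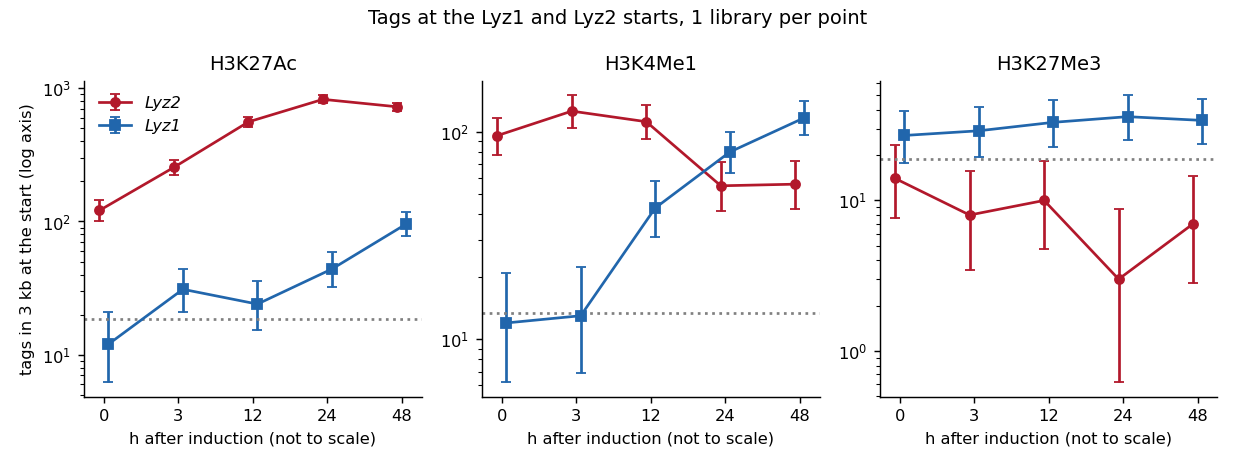
Tags in the 3 kb centred on the Lyz2 (circles) and Lyz1 (squares) starts by time after induction, on a log axis, with exact 95% Poisson intervals and 1 library per point. The dotted line is the genome mean of a 3 kb window. H3K27Ac rises at both genes from 121 and 12 tags, the H3K4Me1 lines cross between 12 and 24 hpi, and H3K27Me3 of Lyz1 lies above that of Lyz2 at all 5 times.

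**Figure D2:**
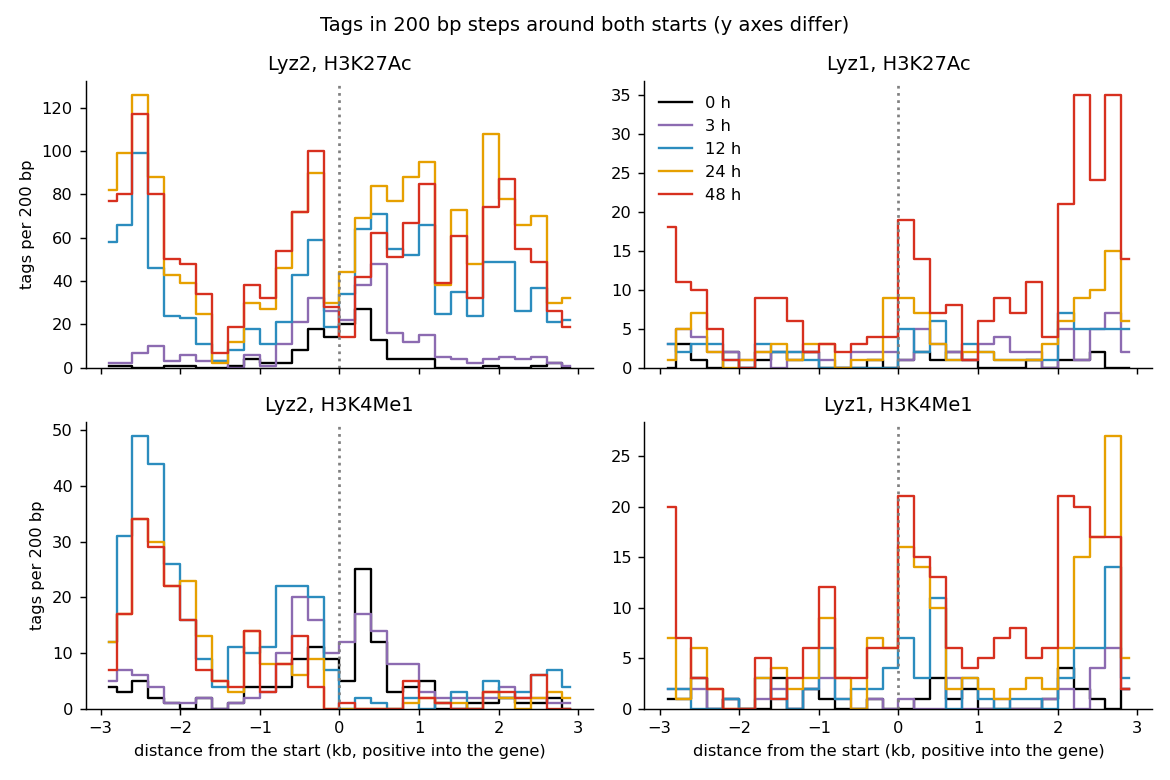
Tags in steps of 200 bp around the Lyz2 (left) and Lyz1 (right) starts for H3K27Ac (top) and H3K4Me1 (bottom), with 1 line per time and y axes that differ. Positive distances run into the gene. From 12 hpi on, H3K4Me1 is nearly empty from the Lyz2 start to 1 kb inside the gene while H3K27Ac there is high, and at Lyz1 both marks appear just inside the gene.

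H3K27Me3, the Polycomb mark, was below the genome mean at the Lyz2 start and above it at the Lyz1 start, although at 0 hpi both intervals included the mean (0.406 to 1.25 times at Lyz2 and 0.944 to 2.09 times at Lyz1). Lyz2 held 14, 8, 10, 3 and 7 tags and Lyz1 held 27, 29, 33, 36 and 34 tags at 0, 3, 12, 24 and 48 hpi. Lyz2 was below Lyz1 at each time, although at 0 hpi the interval of their ratio (0.251 to 1.02) included 1. The log2 change to 48 hpi in 3 kb was -0.91 at Lyz2 (-2.55 to 0.40) and 0.32 at Lyz1 (-0.44 to 1.12), neither beyond counting error. At Lyz2 it was -2.17 in 1 kb and -1.54 in 6 kb around the start, for which no intervals were computed, so a loss there is not excluded. Inside that 6 kb, the 1 kb bin 2.1 kb upstream of the start went from 8 to 0 tags at 48 hpi. That loss was beyond counting error (upper bound of the log2 change -0.77). The bin 0.9 kb inside the gene went from 6 to 2 tags, within counting error (interval -4.93 to 0.90). Both bins were picked by their H3K27Ac at 48 hpi. At 24 hpi, with 3 tags in 3 kb, Lyz2 was below its 0 hpi level beyond counting error (log2 change -1.91, interval -4.66 to -0.38). Lyz1 gained H3K27Ac and H3K4Me1 with no loss of H3K27Me3 detectable at this depth. In bulk chromatin, more cells with a mark and more of the mark per cell cannot be told apart, and neither can 2 marks in the same cells from 2 marks in different cells.

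Both genes ranked high among all gene starts for the change in H3K27Ac, and only Lyz2 did for its level. A start was measured when the higher of its 2 libraries had at least 10 tags, and both genes were measured in each mark. At 48 hpi both were at least 2-fold higher than at 0 hpi, as were 10.6% of 13231 measured starts, and 253 of these (1.91%) rose more than Lyz1 and 319 (2.41%) more than Lyz2. At 3 hpi both were past 2-fold as well, against 8.02% of starts. At 12 hpi Lyz2 was, against 8.3%, and Lyz1 with a log2 change of 0.94 was not. At 24 hpi both were, against 9.03%. These calls are at equal depth. With background bins as the scale the log2 change of Lyz2 at 3 hpi was 0.79, below 2-fold. With bins enriched at all times as the scale the Lyz1 steps to 3 and 12 hpi were 1.42 and -0.33, which takes Lyz1 past 2-fold at 12 hpi. The median log2 change of all measured starts at 48 hpi was -0.21, with 1409 at least 2-fold higher and 2076 lower. Scaling by bins enriched at all times, which shifts each log2 value by 0.41, gave 2170 higher and 1099 lower.

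For H3K4Me1, Lyz1 was past 2-fold at 12 hpi, against 6.56% of starts, and at 48 hpi, against 6.18% of 14127. Only 103 of these (0.729%) rose more by 48 hpi. Lyz2 was not past 2-fold in either direction at 48 hpi, when 16.3% of starts were at least 2-fold lower and the median was -0.32. Scaling by background bins, a shift of 0.55, turned the 873 higher and 2302 lower starts into 1750 and 930. For H3K27Me3, neither gene was among the 4.92% of starts at least 2-fold higher or the 6.34% at least 2-fold lower. For Lyz2 this depended on the setting. Its log2 change was -1.01 in the tags as deposited and -1.04 with bins enriched at all times as the scale. With background bins as the scale it was -0.80 and with a second thinning -0.58. In level, 274 of 22208 starts (1.23%) held more H3K27Ac than Lyz2 at 48 hpi, against 8673 (39.1%) at 0 hpi. For Lyz1 these numbers were 8746 (39.4%) and 11470 (51.6%).

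**Figure D3:**
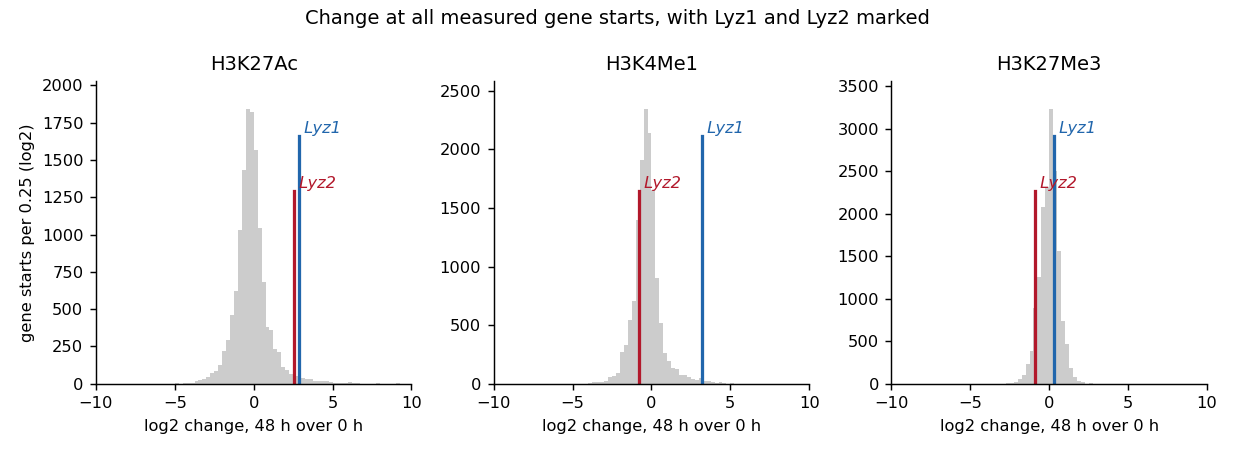
Number of measured protein-coding gene starts per step of 0.25 in the log2 change from 0 to 48 hpi, for each mark, with the change at Lyz2 and Lyz1 drawn as vertical lines. Both genes lie in the right tail for H3K27Ac (2.57 and 2.90), only Lyz1 does for H3K4Me1 (3.18), and neither stands far out for H3K27Me3.

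Around the genes, H3K27Ac came to cover most of a stretch of 35 kb. The locus, from 30 kb before to 30 kb after the 2 genes, is made up of 76 bins of 1 kb (chr10:116684001-116760000). Bins with a Poisson tail below 0.001 at the genome mean were called enriched, which took 13 tags for H3K4Me1 and 16 for the other marks, and enriched bins at most 1 bin apart were joined into runs. H3K27Ac was enriched in 7, 32, 38, 34 and 43 bins from 0 to 48 hpi, and H3K4Me1 in 10, 18, 36, 37 and 36. The H3K27Ac tags of the whole locus went from 656, 1.39 times the genome mean, to 6820, 14.4 times. Over the genome, 4.56% of mappable bins were enriched for H3K27Ac at 0 hpi and 6.58% at 48 hpi, and for H3K4Me1 7.28% and 8.96%.

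At 0 hpi, enriched H3K27Ac lay in 3 places: 2 kb at the Lyz2 start, 4 kb about 19 kb upstream of that start, and the last bin of the locus. By 48 hpi the first 2 were parts of 1 run of 35 kb (chr10:116710001-116745000) that held both genes, with 6057 tags, and a second run of 11 kb reached the end of the locus. At 12 and 24 hpi the run that held Lyz2 ended at the Lyz1 start, and a gap of 2 bins parted it from the upstream run.

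**Figure D4:**
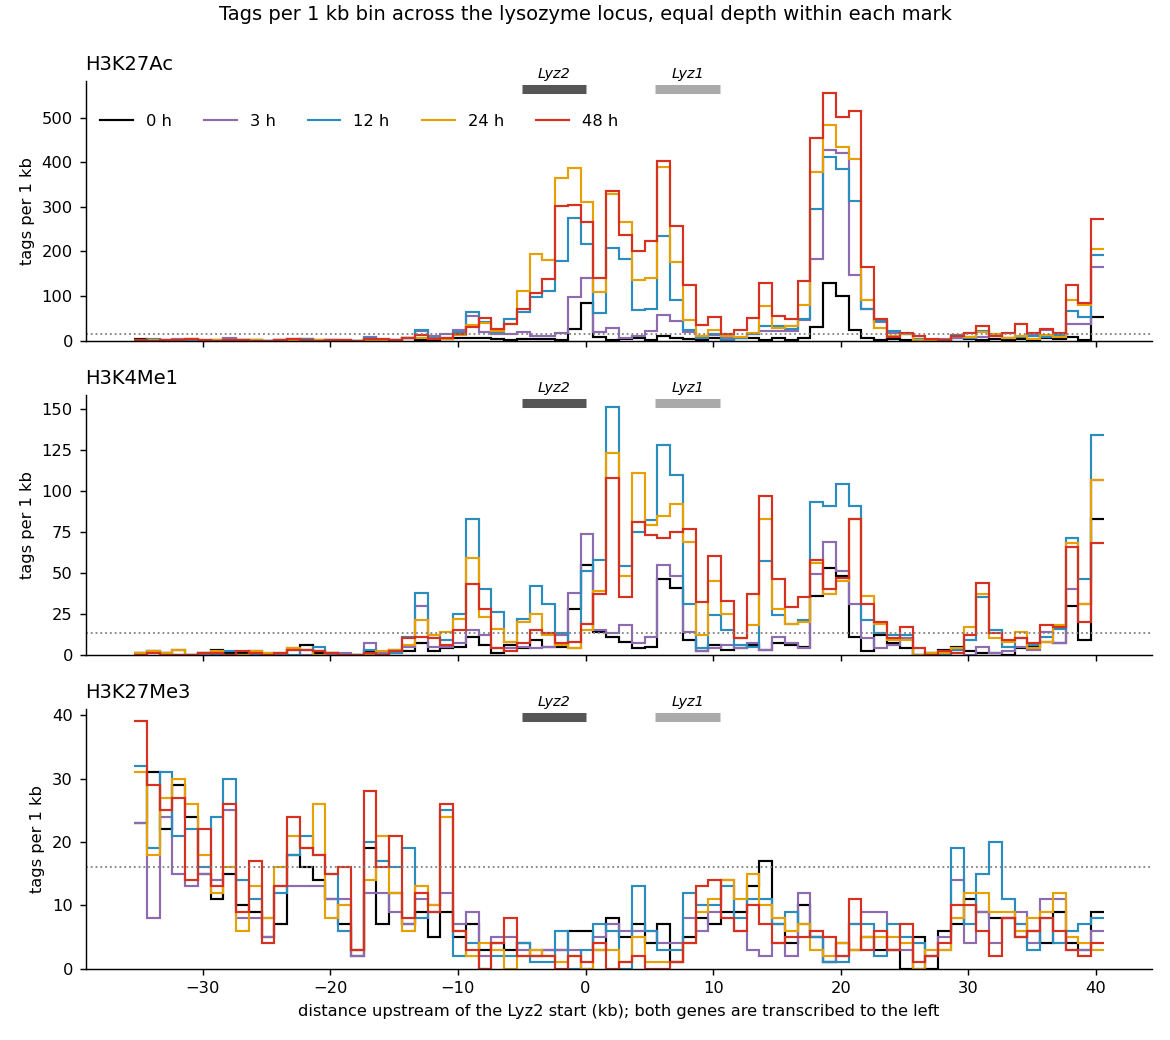
Tags per 1 kb bin across the 76 kb of the locus for H3K27Ac, H3K4Me1 and H3K27Me3, with 1 line per time, against the distance upstream of the Lyz2 start. Bars show the genes, which are transcribed to the left, and dotted lines the count at which a bin is enriched. H3K27Ac is highest about 19 kb upstream of Lyz2, where it already reaches 427 tags at 3 hpi, H3K4Me1 is highest between the genes at 12 hpi, and H3K27Me3 is highest in the left flank.

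Across the locus 9 bins stood out as local maxima of H3K27Ac at 48 hpi, each the highest of the 5 bins around it and at least 4 times the genome mean. This rule was set after the profile had been seen, so these bins are a description. They differed in what they carried in pre-B cells and in how soon they gained H3K27Ac.

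The site with most H3K27Ac tags at 48 hpi lay between genes, 19.1 kb upstream of the Lyz2 start and 8.6 kb upstream of the Lyz1 start. All of its positions were unique, against 76.6% at the site 6.1 kb upstream, and per unique position the order of these 2 sites turned at 24 hpi (48.4% and 50.7% of positions filled after thinning). It was marked in pre-B cells by 130 H3K27Ac tags and 53 H3K4Me1 tags. Its H3K27Ac reached 427 tags at 3 hpi and then counted 411, 484 and 554. By 3 hpi it had made 70.0% of its 48 hpi rise (60.7 to 80.1), while the Lyz2 start window had made 22.2% (17.2 to 27.7). Scaled by bins enriched at all times, these shares were 55.4% and 18.7%. With 1 tag per position the count cannot pass the number of positions, and 51.6% of the unique positions of this site were filled at 3 hpi and 58.6% at 48 hpi before thinning, so later growth there can be understated. By how much was not tested. The same limit holds for the sites 6.1 kb upstream (59.1% filled at 24 hpi and 56.5% at 48 hpi) and 0.9 kb inside Lyz2 (54.0% at 24 hpi). In the tags as deposited, which were cut at 2 per position in these libraries, the share at 3 hpi was 71.3%. H3K4Me1 at this site rose to 91 tags at 12 hpi and fell to 40 at 48 hpi.

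A second site with both marks at 0 hpi was the last bin of the locus, 40.1 kb upstream of the Lyz2 start, so its true summit may lie outside. It held 53 H3K27Ac and 83 H3K4Me1 tags at first and gained H3K27Ac to 165, 193, 205 and 273 tags, with 50.9% of the rise by 3 hpi. Another was the bin just inside Lyz2, 0.9 kb from the start, with 27, 98, 274, 387 and 305 H3K27Ac tags. Its H3K4Me1 dropped from 28 tags at 0 hpi and 38 at 3 hpi to 4 at 12 hpi.

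The site 6.1 kb upstream of the Lyz2 start overlapped an exon of Lyz1, 4.4 kb inside that gene, and carried only H3K4Me1 in pre-B cells. It held 46 H3K4Me1 tags at 0 hpi, with 10 H3K27Ac tags that did not reach enrichment. Its H3K27Ac then counted 57, 234, 388 and 402 tags. At equal depth it had made 12.0% of the rise (8.46 to 16.3) at 3 hpi and 96.4% at 24 hpi. Its share at 24 hpi was not computed under other scales.

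The other 5 sites had neither active mark enriched at 0 hpi. The largest was 2.1 kb upstream of the Lyz2 start (chr10:116721001-116722000), where H3K27Ac went from 2 tags to 29, 207, 328 and 335. Its H3K4Me1 counted 11 and 13 tags before 12 hpi and 151 at that time, the highest H3K4Me1 count of the 76 bins over the 5 times. It had made 8.11% of its H3K27Ac rise by 3 hpi. The site 14.1 kb upstream, before the Lyz1 start by 3.6 kb, counted 1, 22, 33, 77 and 130 H3K27Ac tags. At equal depth that was 16.3% of the rise at 3 hpi and 58.9% at 24 hpi, and the latter was not computed under other scales. This site was enriched for H3K27Me3 at 0 hpi, with 17 tags, and held 2, 11, 10 and 7 at the later times. The H3K27Me3 change to 3 hpi exceeded counting error (log2 change -2.58, interval -6.25 to -1.01). The change to 48 hpi did not (-1.17, interval -2.79 to 0.06). The sites at 31.1 and 34.1 kb upstream reached 34 and 38 H3K27Ac tags at 48 hpi. The one 7.9 kb downstream of the Lyz2 start, past the end of the gene, reached 50. The rule for sites looks at 48 hpi only, so it leaves out bins whose H3K27Ac peaked earlier. The bin next to this site (chr10:116710001-116711000) counted 5, 55, 65, 36 and 30 H3K27Ac tags from 0 to 48 hpi.

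**Figure D5:**
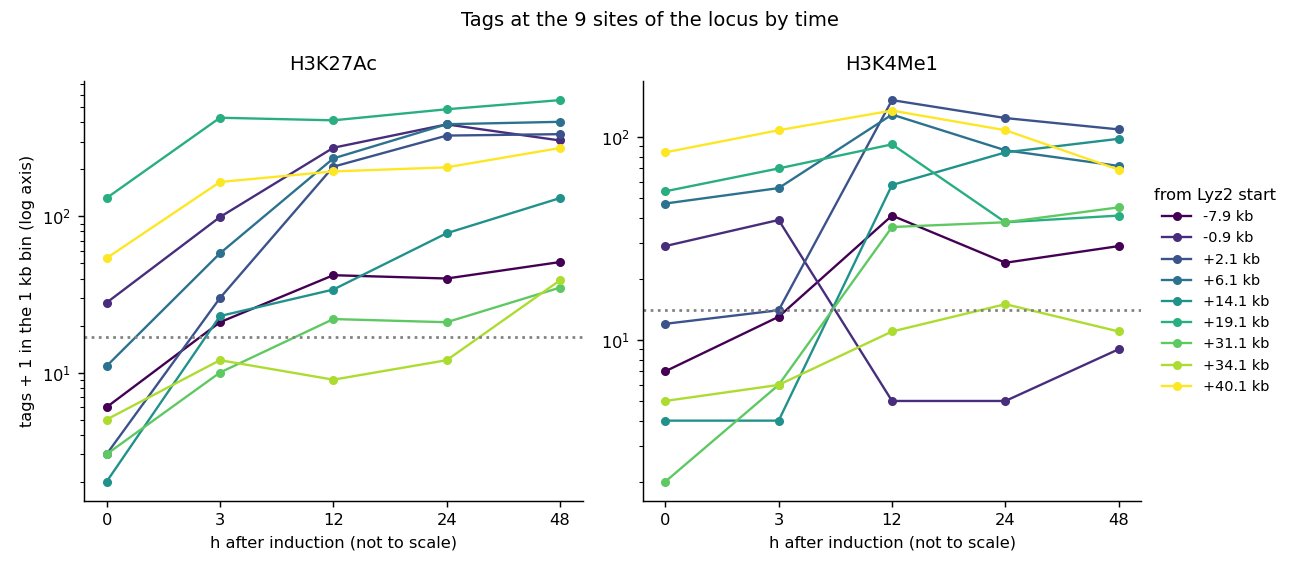
Tags plus 1 in the 1 kb bin of each of the 9 sites by time, on a log axis, for H3K27Ac (left) and H3K4Me1 (right), with the distance from the Lyz2 start (positive upstream) as the line label and the enrichment threshold dotted. The sites at +19.1, +40.1 and -0.9 kb start above the H3K27Ac threshold, and the site at +2.1 kb goes from 2 to 335 tags.

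The reference sequence in the middle of the site that went from 2 to 335 tags is shown. Among the sites with neither active mark enriched at 0 hpi, this site held the most H3K27Ac tags at 48 hpi. Both active marks were enriched there at 48 hpi, which also held for some of the other such sites. The stretch shown is chr10:116721351-116721650, 300 bases of the plus strand of mm9. Capitals again mark the motifs searched at the starts, the TATA box left out, on either strand, and no match overlapped another.
Site 2.1 kb upstream: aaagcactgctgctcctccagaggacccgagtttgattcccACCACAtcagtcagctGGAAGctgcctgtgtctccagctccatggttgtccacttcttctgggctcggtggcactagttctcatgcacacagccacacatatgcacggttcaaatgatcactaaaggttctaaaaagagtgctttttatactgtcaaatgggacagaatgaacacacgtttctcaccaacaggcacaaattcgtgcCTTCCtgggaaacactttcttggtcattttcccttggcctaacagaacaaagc

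This stretch held 2 Ets cores and 1 Runx core. In the middle 300 bases of 160606 bins enriched for H3K27Ac at 48 hpi, TTNNGNAA was found in 48.7%, GGAAG in 65.2%, TGTGGT in 22.4%, GAGGAA in 27.3% and TGANTCA in 10.3%. At least 2 Ets cores were found in 31.1%. Both kinds of match seen at this site were thus common among such bins.

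H3K27Me3 was concentrated on 1 side of the locus. In the 26 kb downstream of the 35 kb run it counted 13.2 tags per kb at 0 hpi (11.8 to 14.6) and 17.7 at 48 hpi (16.1 to 19.3), or 2.09 and 2.81 times the genome mean. The other times gave 12.1, 16.8 and 15.9 tags per kb at 3, 12 and 24 hpi. Within the run it was 5.40 tags per kb at 0 hpi (4.66 to 6.23) and 4.31 at 48 hpi (3.65 to 5.06), with 1 enriched bin at 0 hpi and 0 at the other times. That bin was the site 14.1 kb upstream of the Lyz2 start. The 15 kb upstream of the run held 6.27 and 5.13 tags per kb. H3K27Ac at 48 hpi defined the run. At 0 hpi it counted 1.81 tags per kb downstream of the run and 14.6 in it. In pre-B cells the run was thus close to the genome mean in H3K27Me3, at 0.860 times (0.742 to 0.992), and below its downstream flank, when 6 of its 35 bins were enriched for H3K27Ac. Uniqueness differed between these parts, 72.2% downstream against 82.3% in the run, in the direction that lowers the downstream counts.

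The counts of neighbouring genes past 2-fold were near the shares of all measured starts. Of 16 other protein-coding genes that start within 500 kb, 10 were measured for H3K27Ac. Of these, 0 were at least 2-fold higher at 48 hpi and 2, Cpm and Lrrc10, were at least 2-fold lower. Over all measured starts 10.6% were higher and 15.7% lower, so 0 and 2 of 10 are no result about the neighbours. Their median log2 change was lower, -0.78 against -0.21 over all measured starts, a difference that was not tested. Cpm, which encodes a carboxypeptidase of the cell surface, went from 84 to 31 tags. Starts of widely expressed neighbours were high throughout, such as the chaperonin subunit gene Cct2 with 335 and 298 tags and Mdm2, which encodes the ubiquitin ligase of p53, with 456 and 383. For H3K4Me1, 0 of 11 measured neighbours were higher and 2 lower, and for H3K27Me3, 0 of 14 were higher and 1 lower, also near the shares of all starts (6.18% and 16.3% for H3K4Me1, 4.92% and 6.34% for H3K27Me3).

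Among other members of the lysozyme and α-lactalbumin family few could be measured, and none of these was at least 2-fold higher in either active mark. With 10.6% (H3K27Ac) and 6.18% (H3K4Me1) of all starts higher, so few genes do not set the family apart. Of 8 such genes, 3 were measured for H3K27Ac and 2, Lyzl4 and Lalba, were at least 2-fold lower at 48 hpi, against 15.7% of all measured starts. Lalba, the gene of the milk protein α-lactalbumin, had 630 H3K27Ac tags at its start in pre-B cells and 302 at 48 hpi. Lyzl1, Lyzl6, Spaca3, Spaca5, Lyg1 and Lyg2 held 2 to 13 tags at 0 hpi and 2 to 9 at 48 hpi, below the mean of 18.7. For H3K4Me1 5 of the 8 were measured, 0 were higher and 2, Lyzl4 and Lyg2, were lower, against 16.3% of all starts. All 8 were measured for H3K27Me3, and none was past 2-fold in either direction, with 4.92% of all starts higher and 6.34% lower, so this count is no result about the family.

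Many genes of macrophage and granule antimicrobial functions were also higher in H3K27Ac. In a list of 18 such genes, both included, 15 were measured for H3K27Ac, 11 were at least 2-fold higher at 48 hpi and 0 lower, against 10.6% and 15.7% of all measured starts. The median log2 change was 1.87, and 1.71 without the lysozyme genes, against -0.21 over all measured starts. Camp, which encodes the cathelicidin peptide, went from 12 to 1009 tags, with 58 at 3 hpi and 675 at 12 hpi. Mmp12, the macrophage elastase gene, went from 14 to 375 tags, and Lcn2, whose product binds bacterial siderophores, from 4 to 103. Cd68 and Ctsd, which encode a lysosomal membrane protein and the protease cathepsin D, went from 159 to 468 and from 266 to 875. Elane, Prtn3 and Mpo, given as examples, differed from each other in their course, and no separate count of granulocyte genes was made. Elane, the neutrophil elastase gene, counted 16, 37, 200, 142 and 61 tags over the 5 times, Prtn3 96, 261, 309, 225 and 99, and Mpo, the myeloperoxidase gene, stayed at 6 tags or fewer.

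In the same list H3K4Me1 was at least 2-fold higher at 6 of 16 measured starts and lower at 0, against 6.18% and 16.3% of all starts. These 6 were Lyz1, Camp, Elane, Mmp12, Lcn2 and Cybb, the gene of the large subunit of the phagocyte oxidase. H3K27Me3 was higher at 0 of 16 and lower at 2, Camp (27 to 4 tags) and Elane (24 to 11), against 4.92% and 6.34% of all starts. With so few starts, these H3K27Me3 counts are no result about the list. The list was chosen with results of these libraries known, so its direction is no independent evidence.

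The genes closest to each lysozyme gene in pattern were different ones. Likeness was the Euclidean distance over 10 libraries, H3K27Ac and H3K4Me1 at 5 times, in log2 level over the genome mean. The closest to Lyz2 among the other gene starts were Tmem104 (distance 0.983), Nat9 (1.15), Naip2 (1.17), Fxyd5 (1.40) and Pik3r5 (1.43). Tmem104 and Nat9 start 372 bases apart, so their windows share most tags. Naip2, which encodes a sensor of bacterial proteins in macrophages, counted 133, 264, 519, 752 and 744 H3K27Ac tags. The closest to Lyz1 were Spsb2 (1.08), Itpripl2 (1.40), Gdpd3 (1.48), Hif1a (1.66) and Pip5kl1 (1.68). The distance between Lyz1 and Lyz2 was 9.35.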

How the data were processed

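The authors aligned Illumina reads to mm9 with Eland or Bowtie (which for which library is not given in the sources used here). Each line of the files they deposited is the position of 1 uniquely aligned 36 bp tag, without strand, and tags were counted here. The genes and gene lists were chosen with earlier results of these data known. Chromosomes 1 to 19 and X of mm9 were used, with GENCODE vM1 gene starts. A single tag per position was kept, placed at its middle (18 bp), and random thinning brought all libraries of a mark to equal depth. Log2 changes have 1 tag added to both counts. The functions for calls, intervals and enriched bins were run on simulated Poisson counts with known changes. Such counts hold counting error only, so this checked the code and not the libraries. Named genes were the list members and, for each lysozyme gene, the 5 nearest in pattern. The site, rise-share and RefSeq-start settings were added after the data were seen. Alternatives were other scales, windows, tails, minimums and thinnings. Sequence identity came from global alignment. Transcripts, factor binding and input or IgG libraries were not analysed here, and 1 marker gene and 1 sequence are not reported here. Python 3.11.15, numpy 2.4.6, scipy 1.17.1, pandas 2.3.3 and samtools 1.23.1 were used.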

Additional observations from a re-analysis of the deposited data

How the results depend on the processing

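No paired analysis was possible because every group consists of a single library. Of 151 values recomputed under 13 other settings, 122 stayed within counting error or within 1.5 times of the value reported. No change reported as at least 2-fold turned its direction, but the H3K4Me1 change at Lyz2, below 2-fold in 3 kb, did. For H3K4Me1 at Lyz2 the log2 change of -0.77 became -2.15 in 1 kb, 0.76 in 6 kb and -0.22 with background bins as the scale. For H3K27Ac at Lyz2, 2.57 became 1.45 in 1 kb, 3.62 in 6 kb and 2.98 with bins enriched at all times as the scale. The Lyz1 minus Lyz2 difference became 1.78 for H3K27Ac and 5.44 for H3K4Me1 in 1 kb, and 2.22 for H3K4Me1 in 6 kb. Per unique position the 48 hpi levels at Lyz1 were 6.39 (H3K27Ac) and 10.9 (H3K4Me1), and that of H3K27Ac at Lyz2 49.8. These are set against a genome mean that was not corrected for unique positions. The share of the rise at 3 hpi was 55.7% and 55.4% at the site 19.1 kb upstream and 15.6% at the Lyz2 start under other scales. H3K27Me3 was enriched in 5 bins at 0 hpi at a tail of 1e-05. Starts past 2-fold with no minimum of tags numbered 1358 higher and 5514 lower for H3K4Me1, 2413 and 4174 for H3K27Ac, and 1330 and 1657 for H3K27Me3. With background bins they were 1750 and 930 for H3K4Me1, against 873 and 2302 at equal depth. With bins enriched at all times they were 2170 and 1099 for H3K27Ac, against 1409 and 2076 at equal depth. In both cases the larger of the 2 numbers changed sides. For H3K27Me3 they were 427 higher with bins enriched at all times, and 296 and 646 in 6 kb. The cause of these shifts was not tested. With 1 library per point, no replicate error is known. H3K27Me3 counts at Lyz2 were 3 to 14 tags, and depth limits what they can show.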
